A study of Homo sapiens with 63 samples.

Results

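The mitochondrial genome carries 37 of the 58336 genes in the deposited table, chosen as every row whose mapped symbol starts with MT-. They are 13 mRNAs, 2 rRNAs and 22 tRNAs, and no expression value entered the choice. Of the 37, 27 had a count in at least 1 of the 63 libraries. All 15 mRNAs and rRNAs were counted in every library and passed the filter on low counts, whereas no tRNA passed it.

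RNA was measured in HEK293T, an established human embryonic kidney cell line, made here to express the Halo protein tag ectopically, so that every group, DMSO included, carries the tag. Precursors named Ht-Pre-AG-ibufenac and Ht-Pre-AG-ibuprofen, which bind Halo and free an acyl glucuronide of the drug under light, were given at 10 µM for 2 h, followed by washes and light at 365 nm and 5 mW/cm2 for 3 min. The 7 arms were DMSO and either ibuprofen or ibufenac as a bolus, in photocaged form or in probe form, each sampled at 6, 12 and 18 h with 3 libraries per group, which makes 21 groups. Acyl glucuronides are reactive drug metabolites, and the series title concerns drug-induced liver injury. Ibufenac lacks the methyl group that ibuprofen carries beside its carboxylic acid. The labels leave unsaid what distinguishes the probe from the photocaged form, which arms received light and what dose the bolus held. Nor do they say whether replicates came from separate cultures, so p-values measure only the spread between these libraries, which may be technical. Levels in CPM are counts scaled to a common library size. Of 8 genes listed as markers of the HEK293 line, 7 had a median of 1 CPM or more. Their sum ran from 589 to 807 CPM. A median of 1 CPM or more was also reached by 1 of 7 hepatocyte genes, 0 of 5 blood cell genes and 2 of 5 fibroblast genes. The sums of those lists reached 2.81, 1.90 and 9.35 CPM at most.

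Mitochondrial DNA is a small circle that cells hold in many copies. A nuclear-encoded RNA polymerase, POLRMT, copies both strands into long precursors, which are cut at the tRNAs that lie between most of the other genes, so that mature levels depend on cutting, stabilization and decay as well as on transcription. All of its proteins are subunits of the respiratory chain or of ATP synthase. Its rRNAs are part of the mitochondrial ribosome and its tRNAs serve translation there. The rest of this machinery is made from nuclear genes.

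A few stretches of this genome carry the features that matter for reading the counts, and they are printed 5′ to 3′ from GRCh38. In chrM:8515-8584 (plus strand) the capitals mark the 46 bases that MT-ATP8 and MT-ATP6 share, and in chrM:10748-10778 (plus strand) the 7 bases that MT-ND4L and MT-ND4 share. In chrM:9177-9239 (plus strand) the capitals mark the start codon of MT-CO3, whose first base is the annotated last base of MT-ATP6, with no tRNA between the genes. In chrM:14614-14673 (minus strand) they mark the start codon of MT-ND6, the one mRNA read from the opposite template strand.
MT-ATP8 and MT-ATP6 overlap: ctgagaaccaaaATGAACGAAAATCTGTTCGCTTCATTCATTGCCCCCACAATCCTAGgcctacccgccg
MT-ND4L and MT-ND4 overlap: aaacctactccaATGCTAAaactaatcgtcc
MT-ATP6 and MT-CO3 junction: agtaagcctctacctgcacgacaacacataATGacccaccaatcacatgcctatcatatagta
MT-ND6 first bases: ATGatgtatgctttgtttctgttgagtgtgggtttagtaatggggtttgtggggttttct
The overlapping pairs lie on single bicistronic transcripts, so how reads in the shared bases were split between the genes depends on the counting, which is not given in the sources used here. The strand shows in the letters of MT-ND6, of which 35.6% are G and 7.05% are C, against 14.8% G and 31.8% C in MT-CO3.

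The genes are listed here by their products, all as single stretches without introns. The rRNA genes are MT-RNR1 (12S rRNA, chrM:648-1601) and MT-RNR2 (16S rRNA, chrM:1671-3229). The complex I genes, subunits of NADH dehydrogenase, are MT-ND1 (chrM:3307-4262), MT-ND2 (chrM:4470-5511), MT-ND3 (chrM:10059-10404), MT-ND4L (chrM:10470-10766), MT-ND4 (chrM:10760-12137), MT-ND5 (chrM:12337-14148) and MT-ND6 (chrM:14149-14673, minus strand). MT-CYB (cytochrome b of complex III) lies at chrM:14747-15887. The core subunits of cytochrome c oxidase, complex IV, are MT-CO1 (ENSG00000198804, chrM:5904-7445), MT-CO2 (ENSG00000198712, chrM:7586-8269) and MT-CO3 (ENSG00000198938, chrM:9207-9990). The ATP synthase subunits are MT-ATP8 (chrM:8366-8572) and MT-ATP6 (chrM:8527-9207).

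Per length, the complex IV mRNAs stood far above the rest. Levels between genes are compared here in FPKM, the fragments per kilobase scaled to library depth that the authors deposited, as medians over the 63 libraries. MT-CO1 had 961 FPKM, MT-CO3 835 FPKM and MT-CO2 390 FPKM. MT-ND3 followed at 195 FPKM and MT-CYB at 91.2 FPKM. These 5 kept their order in nearly every library: MT-CO1 exceeded MT-CO3 in 58 of 63, MT-CO3 exceeded MT-CO2 in 63, MT-CO2 exceeded MT-ND3 in 63, and MT-ND3 exceeded MT-CYB in 60. The middle of the order was less distinct. MT-ATP6 (59.0 FPKM), MT-ND4 (55.8 FPKM), MT-ND4L (53.7 FPKM), MT-ND2 (48.1 FPKM) and MT-ND5 (42.1 FPKM) lay close together. In that stretch MT-ATP6 exceeded MT-ND4 in 26 of 63 libraries and MT-ND4 exceeded MT-ND4L in 42, so those neighbours were not separated. The lowest were MT-ND1 (29.9 FPKM), MT-RNR2 (28.5 FPKM), MT-ATP8 (28.2 FPKM), MT-ND6 (15.8 FPKM) and MT-RNR1 (7.79 FPKM). The rRNA values are what remained after ribosomal RNA was depleted from the total RNA, so they do not give the abundance of these rRNAs in the cells. Whether the preparation also affected the mRNA levels was not tested, so the order of the mRNAs is that of these libraries.

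**Figure D1:**
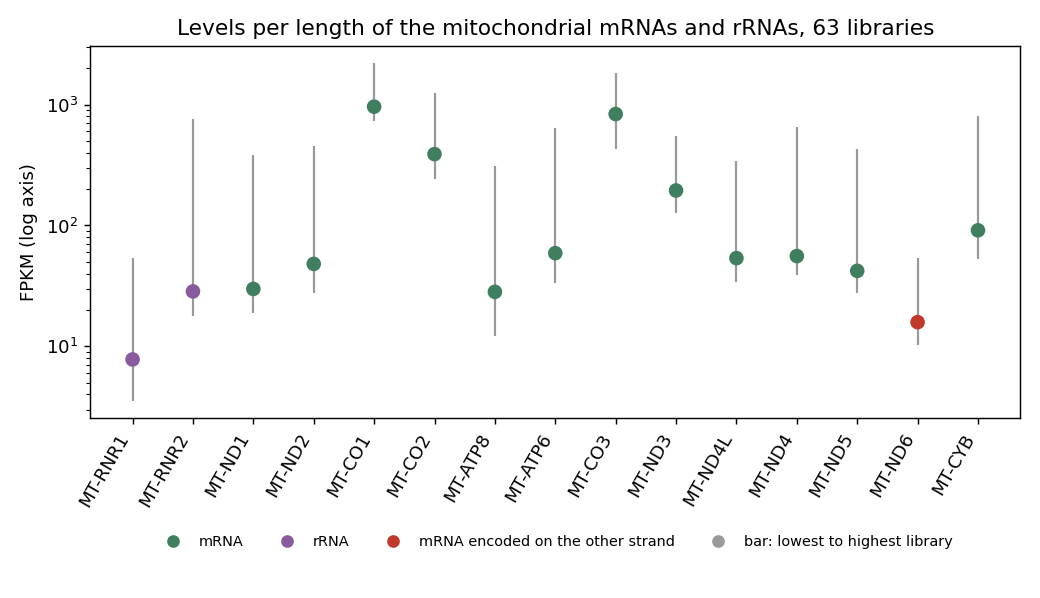
FPKM of the 15 mitochondrial mRNAs and rRNAs over the 63 libraries, on a log axis. The medians run from 961 FPKM for MT-CO1 to 7.79 FPKM for MT-RNR1. The highest values of MT-RNR2 and of several complex I genes come from the libraries described in the text.

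Genes that leave the same precursor side by side did not share a level. MT-CO3 begins at the last annotated base of MT-ATP6, yet its FPKM was 14.9 times that of MT-ATP6 in the median library, with a range of 2.84 to 19.4. The lowest ratio was that of ibufenac bolus 6 h replicate 3, a library described further on, so the step varied with the library. The bicistronic pairs were closer. MT-ND4L stood at 0.922 times MT-ND4 (0.525 to 1.26), and MT-ATP6 at 2.15 times MT-ATP8. MT-ND6 lies next to MT-ND5 but on the other strand, so these neighbours leave different precursors. MT-ND5 stood at 2.93 times MT-ND6.

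The tRNAs were almost absent from these libraries. Of the 22 genes, 59 to 75 bases long, 10 had no count in any library and the other 12 held 43 counts in all, spread over 25 libraries. MT-TA, the alanine tRNA, had the most, with 10 counts, of which 5 were in a single library. These numbers allow no comparison between groups.

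Nuclear genes that are copies of mitochondrial sequence took few of the counts. Of 417 such annotated genes, 115 had a count, and together they held between 0.332% and 0.895% of the mitochondrial counts of a library, with a median of 0.489%. Only the copies with the most counts were aligned. Those on chromosome 1 are MTATP6P1 (chr1:633696-634376), MTCO1P12 (chr1:631074-632616) and MTND2P28 (chr1:629640-630683), which are 98.5%, 98.7% and 98.4% identical to MT-ATP6, MT-CO1 and MT-ND2. Of the 50-base stretches of the mitochondrial genes, 46.7% for MT-ATP6, 49.4% for MT-CO1 and 43.6% for MT-ND2 also occur unchanged in the copy. Reads in those stretches could be assigned to either place, so values of MT-ATP6, MT-CO1 and MT-ND2 are uncertain by what the authors' counting did with them. MTND4P12, on chromosome 5, is 95.8% identical to MT-ND4 and shares 3.46% of its stretches. Other copies were not aligned, so this was not checked for the remaining genes, MT-CO3 among them.

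Each library held 12.1 to 38.4 M counts (median 19.6 M). Mitochondrial genes took 0.205% to 0.999% of them, with a median of 0.296%. The 3 complex IV mRNAs made up 83.7% of the mitochondrial mRNA counts in the median library. In 4 libraries, called high from here on, the summed level of the other 10 mRNAs was over 2 times the median of all libraries, a limit chosen after the values were seen. They were ibufenac bolus 6 h replicate 3 (3934 CPM, 8.15 times that median), ibuprofen bolus 12 h replicates 2 (1044 CPM, 2.16 times) and 3 (1650 CPM, 3.42 times), and ibufenac probe 12 h replicate 1 (1314 CPM, 2.72 times). The remaining 59 lay between 313 and 709 CPM. In the highest, MT-ND1 was 12.5 and MT-ND4 10.9 times the median of those 59 libraries, MT-CO1 2.17 times and MT-ND3 1.42 times, and complex IV mRNAs made up 57.8% of the mitochondrial mRNA counts. The excess was not the same in each: MT-ND6 stood at 3.13 times the same median in ibuprofen bolus 12 h replicate 2 but at 1.06 times in replicate 3, and MT-RNR2 at 23.8 and 0.871 times. Results that rest on these libraries are given with and without them below.

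**Figure D2:**
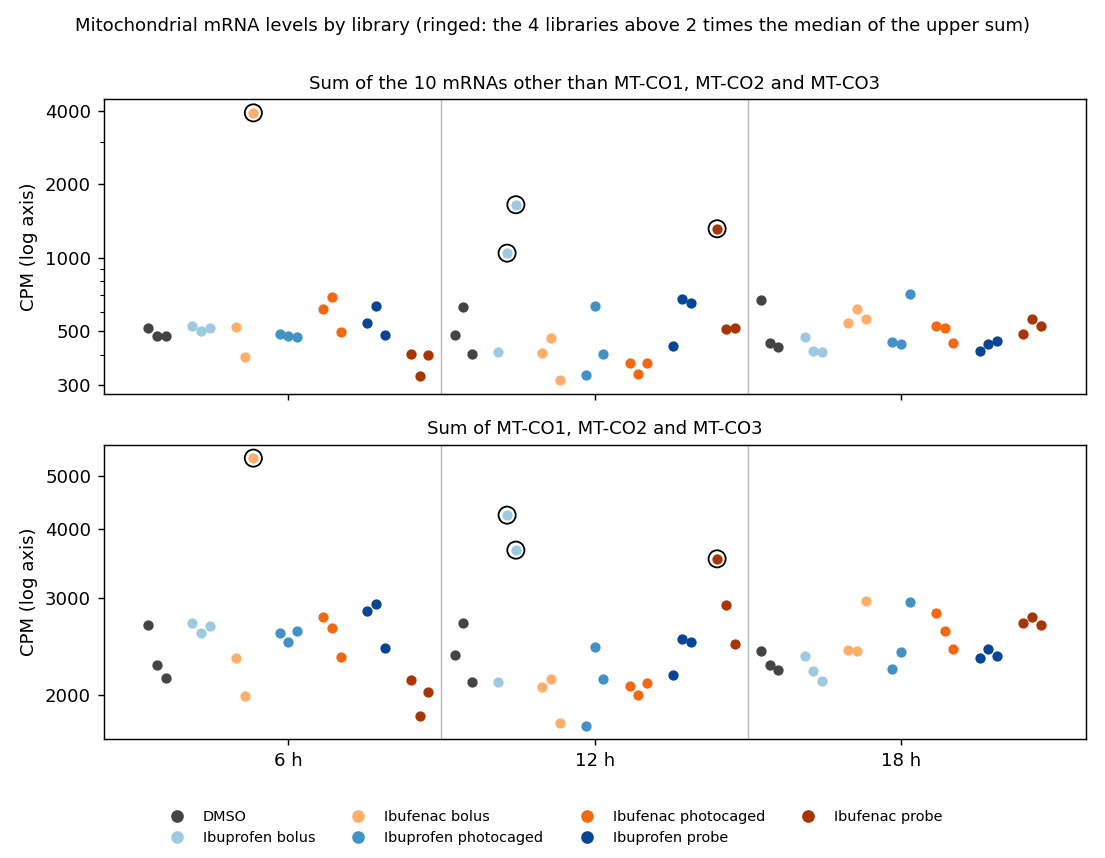
Summed CPM of the 10 mitochondrial mRNAs outside complex IV in each library by group, on a log axis, one point per replicate. The 4 libraries above 2 times the median of all 63 are marked; the other 59 lie between 313 and 709 CPM.

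Of 41 comparisons fitted with edgeR, 1 was an interaction of treatment and time, described further on. Of the other 40, 6 had any mitochondrial gene past an adjusted p of 0.05, among them 2 of the 24 that set a drug arm against DMSO. All drug arms at a time were compared with the same 3 DMSO libraries, so those comparisons are not independent. Nor are the 15 genes independent of each other, as most stood above the median together in each of the 4 high libraries. A shift shared by the genes of a few libraries can therefore make up a count out of 15, which the share of all genes does not account for. Changes are log2 differences of the CPM level with their standard error, n = 3 libraries per group unless stated. As RNA came from whole cultures, fewer cells holding a transcript and less of it per cell cannot be told apart.

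The clearest change was in MT-CO3 in the ibufenac probe arm at 6 h. MT-CO3, a core subunit of cytochrome c oxidase, stood there at 422, 364 and 477 CPM. In DMSO at 6 h it stood at 776, 677 and 631 CPM. In the ibuprofen probe arm at 6 h it stood at 755, 736 and 669 CPM. All 3 ibufenac probe libraries lay below every library of both other groups. MT-CO3 fell by 0.72 ± 0.17 on the log2 scale against DMSO (95% interval -1.07 to -0.37, edgeR adjusted p = 0.00295). Over the 21 groups, that of the ibufenac probe at 6 h had the lowest mean, 421 ± 56.6 CPM (SD). The next, ibufenac photocaged at 12 h, had 562 ± 41.4 CPM and did not overlap with it, but ibuprofen photocaged at 12 h did, with 1 library at 444 CPM.

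MT-CO3 was the single mitochondrial gene called in that comparison, 1 of 15, where 12.7% of all tested genes were called. The more abundant mRNA of the same enzyme overlapped with DMSO. MT-CO1, the catalytic subunit, was at 1463, 1281 and 1313 CPM in the ibufenac probe arm against 1574, 1320 and 1277 CPM in DMSO. The difference was -0.04. MT-CO2, the subunit that takes electrons from cytochrome c, stood at 248, 191 and 235 CPM against 336, 275 and 243 CPM, with a difference of -0.34. The highest ibufenac probe library was above the lowest DMSO library. The ratio of MT-CO3 to MT-CO1 counts within a library, which does not depend on library scaling, was 0.288, 0.284 and 0.363 in the ibufenac probe arm at 6 h, against 0.493, 0.513 and 0.494 in DMSO and 0.437, 0.402 and 0.454 in the ibuprofen probe arm. Every ibuprofen probe library was thus below every DMSO library too, and so was every ibuprofen photocaged library at 6 h (0.449, 0.461 and 0.434). Ibufenac photocaged at 6 h (0.521, 0.428 and 0.446) overlapped with DMSO. The 2 lowest of all 63 libraries in this ratio were from the ibufenac probe arm at 6 h, and the next, 0.322, was ibufenac probe 12 h replicate 1, which is among the 4 high libraries.

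**Figure D3:**
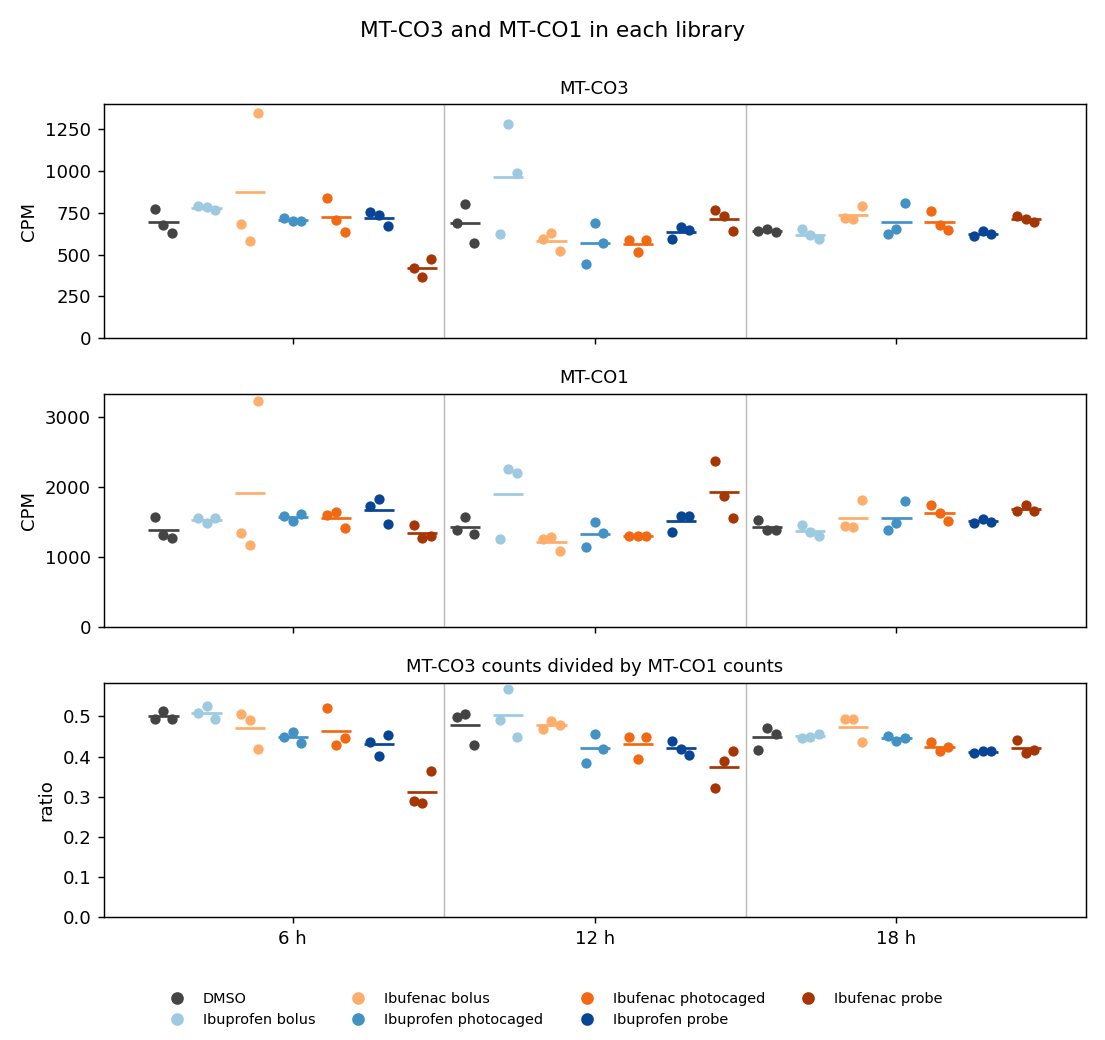
MT-CO3 and MT-CO1 in CPM for the 63 libraries, by arm and time. The 3 ibufenac probe libraries of 6 h are among the 4 lowest in MT-CO3, at 364 to 477 CPM, with MT-CO1 at 1281 to 1463 CPM. The other is ibuprofen photocaged 12 h replicate 1, at 444 CPM of MT-CO3.

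Most other mitochondrial mRNAs were lower as well in the ibufenac probe arm at 6 h, without passing the threshold. MT-ATP6, the proton channel subunit of ATP synthase, was at 29.8, 25.6 and 29.2 CPM against 45.1, 41.5 and 41.9 CPM in DMSO, a difference of -0.60. MT-CYB was at 80.0, 64.9 and 76.1 CPM against 116, 102 and 97.4 CPM, a difference of -0.51. In both genes every ibufenac probe library was below every DMSO library. MT-ND3, a small complex I subunit, was at 61.3, 47.3 and 73.8 CPM against 82.1, 76.3 and 77.9 CPM, a difference of -0.37 (edgeR adjusted p = 0.185). MT-ND6 was at 7.51, 6.86 and 9.10 CPM against 10.2, 11.5 and 11.8 CPM, a difference of -0.51 (edgeR adjusted p = 0.189). Neither pair of groups overlapped. In all, 9 of the 15 genes were lower in every ibufenac probe library than in every DMSO library, where 16.8% of all tested genes were: MT-ND1, MT-ND2, MT-ND3, MT-ND5, MT-ND6, MT-CYB, MT-CO3, MT-ATP8 and MT-ATP6. The exceptions among the mRNAs were MT-CO1, MT-CO2, MT-ND4L and MT-ND4, the last at 73.8, 58.1 and 69.8 CPM against 72.1, 73.7 and 73.4 CPM. The rRNAs differed by 0.18 (MT-RNR1) and 0.11 (MT-RNR2). The median of the 15 differences was -0.37, against -0.02 over all tested genes. The mitochondrial mRNAs took 0.218% ± 0.0155 (SD) of the counts in that arm and 0.279% ± 0.0325 in DMSO.

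Against MT-ATP6, the gene upstream of it, MT-CO3 was not set apart. The ratio of their counts was 14.2, 14.2 and 16.3 in the ibufenac probe arm at 6 h and 17.2, 16.3 and 15.1 in DMSO, and those groups overlap. The difference in MT-ATP6 was less precise: over the 18 comparisons of a drug arm with DMSO at a single time, the 95% interval of MT-CO3 reached 0.35 to either side in the median, that of MT-CO1 0.37, that of MT-ND1 1.00 and that of MT-RNR1 0.97. The wide intervals come with a spread that is estimated over all 21 groups and so includes the 4 high libraries. With only the 6 libraries compared in the model, 6 of 15 genes were called in this comparison, all lower (MT-ND1, MT-ND2, MT-ND5, MT-CYB, MT-CO3 and MT-ATP6), where 14.2% of all tested genes were. With all groups but not the 4 high libraries, MT-CO3 alone was called, at -0.70 (edgeR adjusted p = 1.19e-05), where 12.5% of all genes were.

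**Figure D4:**
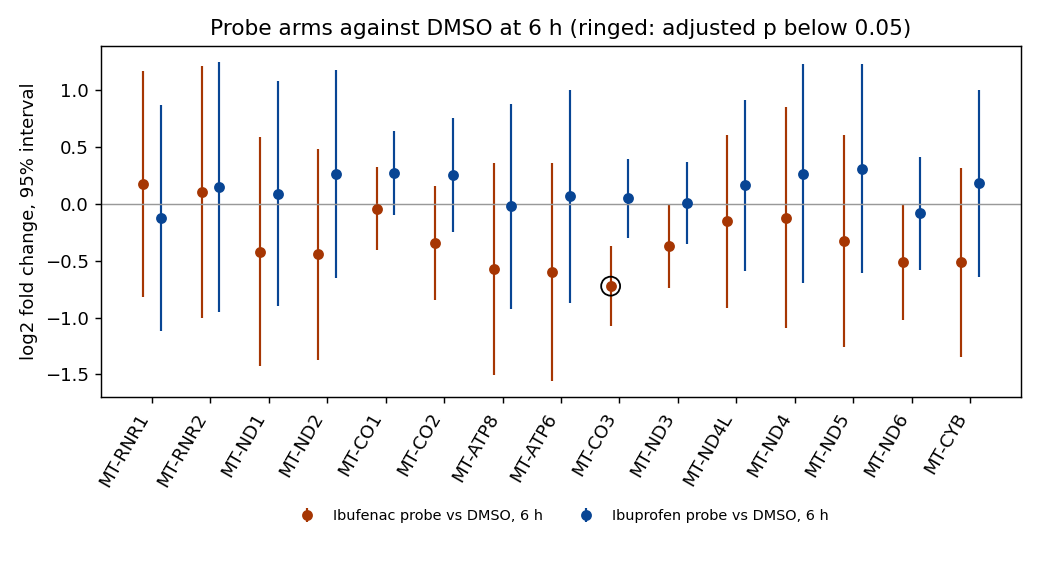
Log2 differences of the 15 mitochondrial mRNAs and rRNAs at 6 h, with 95% intervals from edgeR, for the ibufenac probe and the ibuprofen probe against DMSO. The interval of MT-CO3 lies wholly below 0 for the ibufenac probe (-0.72) and spans 0 for the ibuprofen probe (0.05).

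Ibufenac and ibuprofen were compared in the same form and at the same time in 9 pairs of groups, and in 3 more averaged over the times, with p-values adjusted over all tested genes in each. The probe forms differed at 6 h. MT-CO3 was lower with ibufenac by a log2 difference of -0.78 ± 0.17 (95% interval -1.13 to -0.42, edgeR adjusted p = 0.000762), and it was the 1 gene of 15 called, where 23.6% of all tested genes were. The ibuprofen probe itself did not move MT-CO3 detectably from DMSO, with a difference of 0.05 (95% interval -0.30 to 0.40), and 0 of 15 genes were called there by edgeR, with 0 at an unadjusted p under 0.05 and 0 by DESeq2, where 11.4% of all genes were called. Between the probes, 10 of 15 genes were lower in every ibufenac library than in every ibuprofen library, where 18.4% of all genes were: MT-ND1, MT-ND2, MT-ND3, MT-ND4, MT-ND5, MT-CYB, MT-CO1, MT-CO2, MT-CO3 and MT-ATP6. For the complex IV genes MT-CO1 stood at 1729, 1831 and 1474 CPM and MT-CO2 at 364, 365 and 289 CPM in the ibuprofen probe arm, all above the ibufenac values. The differences of these genes, -0.31 (edgeR adjusted p = 0.236) and -0.59 (adjusted p = 0.0789), did not pass the threshold. The median over the 15 genes was -0.51, against -0.05 over all tested genes. When the 4 high libraries were left out, edgeR called 8 of 15, all lower, where 22.7% of all genes were called: MT-ND2 (-0.71), MT-ND3 (-0.38), MT-ND5 (-0.64), MT-CYB (-0.70), MT-CO1 (-0.31), MT-CO2 (-0.60), MT-CO3 (-0.78, adjusted p = 3.01e-06) and MT-ATP6 (-0.67). None of those 4 libraries is in this comparison, and leaving them out changes the estimated spread. A lower value between the probes does not say which probe moved. In that fit MT-CO1 was 0.30 higher with the ibuprofen probe than in DMSO.

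The GC content of genes moved with the probe comparisons at 6 h. With tested genes split into 5 equal groups by GC, the median difference from the lowest to the highest group went from -0.20 to 0.61 between the probes, from -0.09 to 0.18 for the ibufenac probe against DMSO, and from 0.12 to -0.45 for the ibuprofen probe against DMSO. The 1510 genes within 1 percentage point of the GC content of MT-CO3, 46.6%, had medians of -0.14, -0.08 and 0.07 in those comparisons, against -0.78, -0.72 and 0.05 for MT-CO3.

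At the later times the CPM of MT-CO3 in the ibufenac probe arm was at the level of its controls. It stood at 765, 732 and 643 CPM at 12 h and at 732, 715 and 697 CPM at 18 h. DMSO stood at 692, 801 and 571 CPM and at 640, 655 and 634 CPM. At 12 h the groups overlapped, and at 18 h all 3 ibufenac probe libraries were above all 3 of DMSO, but the differences of 0.05 (95% interval -0.30 to 0.40) and 0.15 (-0.20 to 0.50) did not pass the test. The ratio of MT-CO3 to MT-CO1 counts was still lower at 12 h, at 0.322, 0.389 and 0.413 against 0.498, 0.506 and 0.429 in DMSO, without overlap. At 18 h that ratio was 0.441, 0.409 and 0.417 against 0.416, 0.471 and 0.456, with overlap. At 12 h edgeR called 0 of 15 genes, with 3 at an unadjusted p under 0.05 and 0 by DESeq2, where 4.51% of all tested genes were called. The median difference was 0.67, and this group holds 1 of the high libraries. At 18 h edgeR called 0 of 15, with 1 at an unadjusted p under 0.05 and 0 by DESeq2, where 2.69% were called. MT-CO2 was nearest to a call at that time, at 315, 313 and 316 CPM against 227, 219 and 201 CPM in DMSO, a difference of 0.54 with no overlap (edgeR adjusted p = 0.291). It passed without the 4 high libraries, at 0.55 (edgeR adjusted p = 0.0213), and so did MT-RNR2 at 12 h, at 0.83 (edgeR adjusted p = 0.0497), where 3.11% and 3.51% of all genes were called. Between the probes at 12 h and 18 h edgeR called 0 of 15 genes at each time, with 0 at an unadjusted p under 0.05 and 0 by DESeq2, where 1.92% and 0% of all genes were called. The MT-CO3 differences were 0.17 (95% interval -0.18 to 0.51) and 0.19 (-0.16 to 0.54). At 18 h, with no call, 10 of 15 genes were higher in every ibufenac probe library than in every ibuprofen probe library, where 7.15% of all tested genes were, with MT-CO2 at a difference of 0.44 (95% interval -0.07 to 0.94). The bolus pair had the same count at 18 h, as given with the bolus arms. The ibuprofen probe had 0 of 15 genes called against DMSO by edgeR at 12 h and at 18 h, with 0 at an unadjusted p under 0.05 and 0 by DESeq2, where 1.97% and 1.78% were called.

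In the bolus arms the calls rested on 1 or 2 high libraries. At 12 h, MT-RNR2, the 16S rRNA, stood at 34.2, 1068 and 39.1 CPM with ibuprofen. In DMSO it stood at 37.5, 35.1 and 38.2 CPM, and with ibufenac at 34.3, 40.1 and 27.0 CPM. The other two ibuprofen libraries lay at the DMSO level, so the groups overlap. edgeR called MT-RNR2 higher with the ibuprofen bolus than in DMSO, at 3.36 ± 0.58 (adjusted p = 0.00759), and lower with the ibufenac than with the ibuprofen bolus, at -3.48 ± 0.58 (adjusted p = 0.00438), where 0.0103% and 0.0362% of all tested genes were called. Without ibuprofen bolus 12 h replicate 2 the first difference was -0.01. In the same pair at 12 h, edgeR called 2 more of the 15 genes lower with ibufenac. MT-ATP8, the small ATP synthase subunit, was at 4.34, 5.03 and 2.41 CPM against 5.35, 23.9 and 25.2 CPM, a difference of -2.19 (edgeR adjusted p = 0.0494). MT-ND3 was at 64.6, 57.5 and 47.5 CPM against 68.1, 174 and 82.3 CPM, a difference of -0.93 (edgeR adjusted p = 0.0355). For both the groups did not overlap, although ibuprofen replicate 1 lay close to the ibufenac values.

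At 6 h, 8 of 15 genes were called higher with the ibufenac than with the ibuprofen bolus, where 2.3% of all tested genes were called. They were MT-ND1, MT-ND2, MT-ND4L, MT-ND4 and MT-ND5 of complex I, MT-CYB of complex III, and MT-ATP8 and MT-ATP6 of ATP synthase, with differences from 1.38 to 2.22. MT-ND1 had the largest, with 32.3, 26.3 and 349 CPM for ibufenac and 30.1, 27.2 and 30.2 CPM for ibuprofen (2.22 ± 0.50, edgeR adjusted p = 0.0217). All 8 pairs of groups overlapped, since only replicate 3 of the ibufenac bolus was high. With the 4 high libraries left out, edgeR called 0 of 15 genes in the bolus comparisons at 6 h and 12 h, and the MT-ND1 difference at 6 h was -0.00172. The ibufenac bolus at 6 h then has 2 libraries and the ibuprofen bolus at 12 h has 1, which is assumed to vary like the other groups. Against DMSO at 6 h the ibufenac bolus had 0 of 15 genes called by edgeR, with 10 at an unadjusted p under 0.05 and 6 by DESeq2, where 0.0258% of all genes were called. For the ibuprofen bolus at 6 h and 18 h and the ibufenac bolus at 12 h and 18 h, edgeR called 0 of 15 against DMSO, with 0 at an unadjusted p under 0.05 and 0 by DESeq2, where 0%, 0.0723%, 0% and 5.03% of all genes were called. At 18 h the drugs did not differ by a call in any of the 15 genes, with 1 at an unadjusted p under 0.05 by edgeR and 0 by DESeq2, where 0% of all genes were called. Still, 10 of 15 were higher in every ibufenac than in every ibuprofen bolus library, where 8.46% of all genes were. Against DMSO at 18 h the ibufenac bolus had MT-CO2 at 254, 261 and 352 CPM against 227, 219 and 201 CPM, a difference of 0.42 (edgeR adjusted p = 0.33), which passed without the 4 high libraries at 0.45 (edgeR adjusted p = 0.0453), where 7.34% of all genes were called.

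Between the photocaged forms of the drugs no mitochondrial gene passed the test. edgeR called 0 of 15 at 6, 12 and 18 h, with 0 at an unadjusted p under 0.05 and 0 by DESeq2, where 0% of all tested genes were called at each time. At 6 h, 4 of 15 genes (MT-ND1, MT-ND2, MT-ND5 and MT-CYB) were higher in every ibufenac library, where 4.2% of all genes were, and at 12 h 3 of 15 (MT-ND2, MT-ND6 and MT-ATP8) were lower, where 5.39% were. For MT-CO3 the differences were 0.04 (95% interval -0.31 to 0.39), -0.01 (-0.36 to 0.34) and -0.00 (-0.35 to 0.35), so a difference of the size seen between the probes at 6 h lay outside these intervals. Against DMSO, ibufenac photocaged at 12 h came nearest to a change, with MT-CO2 at 191, 188 and 216 CPM against 293, 323 and 217 CPM, a difference of -0.48 (edgeR adjusted p = 0.401). In that comparison 0 of 15 genes were called by edgeR, with 0 at an unadjusted p under 0.05 and 0 by DESeq2, where 1.58% of all genes were called. Still, 5 of 15 were lower in every library, where 12.8% of all genes were (MT-ND1, MT-ND4, MT-ND5, MT-CO1 and MT-CO2). MT-CO2 passed there without the 4 high libraries, at -0.49 (edgeR adjusted p = 0.0496), where 2.56% of all genes were called. With only the libraries of that 12 h comparison in the model, edgeR called 8 of 15 genes, all lower. The share of all genes called in that fit is not given here. At 6 h and 18 h ibufenac photocaged had 0 of 15 genes called by edgeR, with 0 at an unadjusted p under 0.05 and 0 by DESeq2, where 3.03% and 2.86% of all genes were called. For ibuprofen photocaged edgeR called 0 of 15 at each time, where 0.992%, 0.677% and 2.21% of all genes were called at 6, 12 and 18 h, with 1 at an unadjusted p under 0.05 at 18 h, 0 at the other times and 0 by DESeq2.

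Averaged over the 3 times, with 9 libraries per arm, edgeR called 0 of 15 genes in each of the 6 drug arms against DMSO, in each of the 3 drug pairs and in each of the 2 comparisons of probe with photocaged form. The counts at an unadjusted p under 0.05 were 3 for the ibuprofen bolus, 6 for the ibufenac bolus, 2 for the bolus pair and 0 for the others, and DESeq2 called 0 in each. Among all tested genes, 13.2% were called for the ibufenac probe, 8.42% for the ibuprofen probe, 7.49% for ibufenac photocaged, 4.28% for ibuprofen photocaged, 0.0258% for the ibuprofen bolus and 0.0103% for the ibufenac bolus. Between the drugs 2.82% were called for the probes, 0.0362% for the photocaged forms and 0% for the bolus. Between the forms 2.68% were called for ibufenac and 0.0982% for ibuprofen.

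Some levels also differed between the times in DMSO, where time and the handling of each time point cannot be told apart. MT-ND6, the complex I subunit read from the opposite strand, stood in DMSO at 10.2, 11.5 and 11.8 CPM at 6 h, at 9.97, 9.89 and 6.04 CPM at 12 h, and at 6.46, 6.66 and 7.33 CPM at 18 h. All libraries of 18 h lay below all of 6 h. MT-ND6 fell by 0.71 ± 0.25 from 6 h to 18 h (95% interval -1.23 to -0.20, edgeR adjusted p = 0.0433), and it was the 1 gene of 15 called, where 17.5% of all tested genes were. This call lay close to the threshold: with DESeq2 the adjusted p was 0.0503, and without any 1 of the 6 libraries edgeR gave 0.0588 to 0.114. Over the 7 arms the median of the group means of MT-ND6 was 10.5 CPM at 6 h, 7.94 CPM at 12 h and 6.82 CPM at 18 h. From 6 h to 12 h edgeR called 0 of 15 genes in DMSO, with 0 at an unadjusted p under 0.05 and 0 by DESeq2, where 3.82% of all genes were called.

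**Figure D5:**
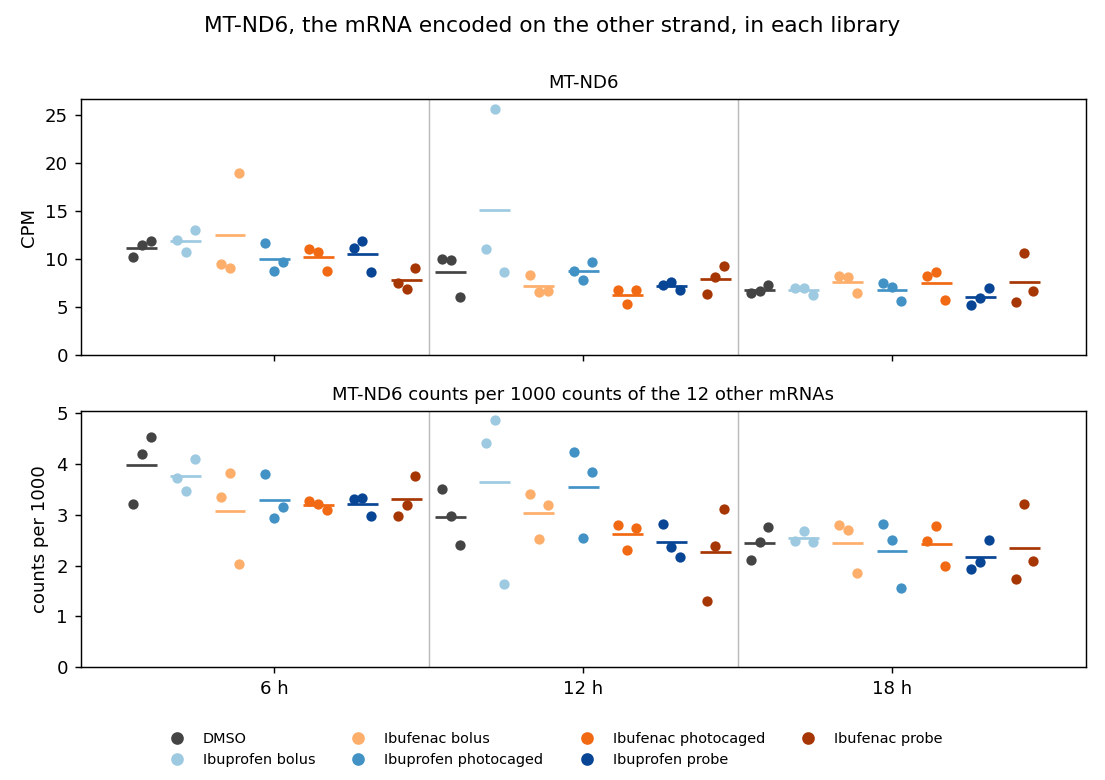
MT-ND6 in each library by time and arm, as CPM and, in a separate panel, per 1000 counts of the 12 other mitochondrial mRNAs. In DMSO the CPM lies at 10.2 to 11.8 at 6 h and at 6.46 to 7.33 at 18 h, and the ratio at 3.20 to 4.52 and at 2.10 to 2.77.

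The rRNAs went the other way in DMSO. MT-RNR1, the 12S rRNA, was at 5.63, 5.61 and 6.73 CPM at 6 h and at 16.4, 8.63 and 14.0 CPM at 18 h. MT-RNR2 was at 36.4, 36.8 and 40.1 CPM and at 81.6, 46.9 and 71.4 CPM. For both, every library of 18 h was above every library of 6 h. Their differences of 1.12 ± 0.48 (edgeR adjusted p = 0.107) and 0.82 ± 0.55 (adjusted p = 0.339) did not pass. Both passed in edgeR without the 4 high libraries, at 1.13 (adjusted p = 0.0133) and 0.83 (adjusted p = 0.00733), where 16.6% of all genes were called. MT-CO2 and MT-ND3 were, with MT-ND6, the 3 genes lower in every library of 18 h, where 15.8% of all tested genes were. MT-ND4, with the rRNAs, made up the 3 that were higher, where 14.1% were. Depletion of rRNA was part of the library preparation, and its part in the rRNA values was not tested.

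Whether the arms differed in their course over time was tested with an edgeR interaction of treatment and time. It passed for 13 of 15 genes, all but MT-RNR1 and MT-ND6, where 22.8% of all tested genes passed. With limma on FPKM, 8 of the 13 did not pass, and MT-CO1, MT-CO2, MT-CO3, MT-ND3 and MT-ATP8 did. Without the 4 high libraries it passed for 11, where 20.8% of all genes did. MT-CO3 was among them with an adjusted p of 0.000646, and 2.61e-05 without those libraries, and MT-CO2 with 0.00182 and 0.000167. MT-ND3 and MT-ND4L did not pass without them, with adjusted p of 0.113 and 0.388.

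The nuclear genes that copy, process and translate mitochondrial RNA, or build the respiratory chain around its proteins, were counted from written lists. In the ibufenac probe arm at 6 h against DMSO, 4.63% of all tested genes were called higher and 8.11% lower, and the counts of the lists stand against those shares. Of 11 genes for mitochondrial DNA transcription and replication, 1 fell and 0 rose: MGME1, a nuclease of mitochondrial DNA maintenance (-0.26). Of 29 genes for RNA processing, modification and decay, 4 fell and 1 rose, with a median of 0.01. FASTKD5, a factor needed for noncanonical processing of mitochondrial mRNAs, fell by 0.52 on the log2 scale (edgeR adjusted p = 0.000123). FASTKD1, a family member, fell by 0.42 (edgeR adjusted p = 0.00578), and SLIRP, which binds and stabilizes mitochondrial mRNAs, fell by 0.37 (edgeR adjusted p = 0.0122). TRIT1, a tRNA-modifying enzyme, rose by 0.31.

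Of 49 genes of the large mitochondrial ribosomal subunit, 2 rose and 3 fell, with MRPL58 the most changed upward (0.50) and MRPL20 downward (-0.34). Of 29 of the small subunit, 1 rose and 2 fell, with MRPS18B at 0.33 and MRPS6 at -0.41. Of the nuclear subunits, 1 of 39 of complex I fell (NDUFB1, -0.44), 0 of 4 of complex II and 0 of 9 of complex III were called, 1 of 10 of complex IV fell (COX7B, -0.29) and 2 of 15 of ATP synthase fell (ATP5MC1, -0.34, and ATP5PF, -0.29). None rose. Of 15 mitochondrial chaperones and proteases, 2 rose and 3 fell. LONP1, a matrix protease, rose by 0.84 and HSPE1, the matrix chaperonin partner of HSPD1, fell by 0.86 (edgeR adjusted p = 4.00e-09). PPARGC1B, a transcriptional coactivator of mitochondrial genes, fell by 0.84 and was the 1 of 7 biogenesis genes called.

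Between the probes at 6 h, 12.9% of all tested genes were called higher with ibufenac and 10.7% lower. Higher with ibufenac were 4 of 11 transcription and replication genes (1 lower), 7 of 29 RNA processing genes (4 lower), 14 of 49 and 5 of 29 genes of the large and small ribosomal subunits (1 and 0 lower) and 12 of 39 complex I genes (1 lower). POLRMT, the mitochondrial RNA polymerase, was higher by 1.21 (edgeR adjusted p = 2.36e-05) and TFB2M, its initiation factor, by 0.42. NDUFB7 and NDUFS7, of complex I, were higher by 2.29 and 2.07, ATP5F1D, of ATP synthase, by 2.05, and COX8A, of complex IV, by 0.74. FASTKD5 and FASTKD1 were lower here too, at -0.54 and -0.46, and so was PPARGC1A, a coactivator of mitochondrial biogenesis, at -0.83. Counts of the complex IV, ATP synthase and biogenesis lists are not given for this comparison. The genes named from those lists therefore do not stand for the lists. The ibuprofen probe lies on the other side of this comparison: against DMSO at 6 h, 15 of 39 complex I genes fell and 1 rose, where 7.82% of all tested genes fell and 3.61% rose. Counts of the other lists are not given for that comparison. The GC trend given above runs through these comparisons, and its part in the counts of the lists was not tested.

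From 6 h to 18 h in DMSO, 10% of all tested genes fell and 7.42% rose. Of 11 transcription and replication genes 4 fell and 0 rose, among them TWNK, the mitochondrial DNA helicase (-0.70), TFB2M (-0.44) and TFAM, which packages mitochondrial DNA and starts its transcription (-0.40). Of 29 RNA processing genes 9 fell and 0 rose, with MTPAP, the mitochondrial poly(A) polymerase (-0.59), ELAC2, which cuts the 3′ ends of tRNAs (-0.48), and TRMU, a tRNA-modifying enzyme (-0.43). Of the ribosomal genes, 12 of 49 and 8 of 29 fell, and 1 and 0 rose. For complex I 2 of 39 fell and 1 rose, and for complex IV 0 of 10 were called.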

How the data were processed

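Total RNA was depleted of ribosomal RNA and sequenced with a stranded kit, per the labels' protocols. The authors deposited expected counts and FPKM for 58336 Ensembl genes. Which aligner, counter, strand setting and build they used is not given in the sources used here. Expected counts were rounded (22.6% of values of 1 or more were not whole). Current symbols matched 57754 genes, GENCODE release 29 named 462 and 120 had none. Coordinates and printed sequences are from GENCODE 29 on GRCh38.

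edgeR 4.0.16 (R 4.3.3) fitted a quasi-likelihood model with TMM scaling over the 21 groups to the 19352 genes kept by filterByExpr at a minimum count of 10. Tests were two-sided with Benjamini-Hochberg adjustment over all tested genes in each of 41 comparisons, and "called" means an adjusted p below 0.05. CPM uses TMM-scaled library sizes. FPKM served for levels between genes and, with limma 3.58.1, as an alternative, as did DESeq2 1.42.0. The method was tested on simulated data only for the ibufenac probe against DMSO averaged over times. That simulation did not cover comparisons at a single time, the interaction or libraries like the high ones. The members and lists were chosen with earlier results of these data known. Every member is accounted for, each called mRNA or rRNA is named, and lists name up to 3 called genes per direction, those with the largest change at a mean of 1 CPM or more.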

Additional observations from a re-analysis of the deposited data

Results flagged for a closer look

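The arms differed in their course over time, by the edgeR interaction of treatment and time with an adjusted p below 0.05, in 13 of the 15 mitochondrial genes tested. By adjusted p these were MT-ATP8 (0.000414), MT-CO3 (0.000646), MT-ATP6 (0.00116), MT-RNR2 (0.00167), MT-ND1 (0.00178), MT-CO2 (0.00182), MT-ND4 (0.00324), MT-CYB (0.00398), MT-ND5 (0.00432), MT-ND4L (0.00676), MT-ND2 (0.0104), MT-ND3 (0.0121) and MT-CO1 (0.0276). Without the 4 high libraries, edgeR gave MT-CO3 an adjusted p of 2.61e-05, MT-CO2 0.000167, MT-ND5 0.00466, MT-ND4 0.00581, MT-CO1 0.00627, MT-CYB 0.00689, MT-ATP8 0.0109, MT-ND2 0.0148, MT-ATP6 0.0218, MT-ND1 0.0374 and MT-RNR2 0.0375, while MT-ND3 (0.113) and MT-ND4L (0.388) no longer passed. With limma on FPKM, 8 of the 13 did not pass: MT-ATP6 (adjusted p 0.0502), MT-ND4L (0.0636), MT-CYB (0.0838), MT-ND1 (0.0902), MT-ND5 (0.120), MT-ND4 (0.140), MT-ND2 (0.175) and MT-RNR2 (0.336).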

How the results depend on the processing

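The lower MT-CO3 of the ibufenac probe at 6 h was called in every alternative run, against DMSO and against the ibuprofen probe. Leaving out 1 of the 6 libraries, the difference ranged from -0.80 to -0.63 against DMSO (edgeR adjusted p 0.00463 to 0.0332) and from -0.88 to -0.68 between the probes (0.00122 to 0.0113). Replicates with the same number were not treated as paired, and the labels do not say whether they were. Of 54 pairs of a drug library with the same-numbered DMSO library, 0 had deviations that correlated above 0.1 (median 0.0096). Low correlation alone does not settle the pairing. With a replicate block the MT-CO3 difference against DMSO was -0.72, the interaction passed for 13 genes, the bolus pair at 12 h had 2 calls without MT-ATP8 (adjusted p 0.0764), and other counts were as reported.

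The other counts of called genes depended on the spread that edgeR estimates and on single libraries. The shares of all genes called are not given beside the counts in this section. The counts therefore show how far a setting moves them and are not results about the members. With no low-count filter (36130 genes tested, where edgeR estimated infinite prior degrees of freedom), counts against DMSO averaged over times were 10 for the ibuprofen bolus, 10 for the ibufenac bolus, 1 for ibufenac photocaged, 1 for the ibuprofen probe and 6 for the ibufenac probe. At single times they were, for the ibuprofen bolus, 15 (12 h) and 1 (18 h), for the ibufenac bolus 12, 4 and 1 (6, 12 and 18 h), for ibuprofen photocaged 2 and 3 (12 and 18 h), for ibufenac photocaged 4, 10 and 3, for the ibuprofen probe 3, 2 and 4, and for the ibufenac probe 8, 10 and 1. Between the drugs they were 7 (mean), 15 (12 h) and 10 (18 h) for the bolus, 5 and 2 (6 and 12 h) for the photocaged forms and 2 (mean), 10, 9 and 2 for the probes. The ibufenac probe and photocaged forms differed in 6 genes, and DMSO at 18 h and 6 h in 7.

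With only the libraries compared, counts were 0 for the ibuprofen bolus at 12 h, 8 for ibufenac photocaged at 12 h, 3 and 1 for the ibuprofen probe at 6 and 12 h, 1 for the ibufenac probe averaged over times and 6, 1 and 1 at 6, 12 and 18 h, 0 for the bolus pair at 6 and 12 h, 8 and 1 for the probes at 6 and 18 h, and 4 for DMSO at 18 h. Without the 4 high libraries, a setting chosen after seeing the data, they were 0 for the ibuprofen bolus at 12 h and for the bolus pair at 6 and 12 h, 1 each for the ibufenac bolus at 18 h, ibufenac photocaged at 12 h, the ibuprofen probe at 6 h (MT-CO1, 0.30) and the ibufenac probe at 12 and 18 h, 8 for the probes at 6 h and 3 for DMSO at 18 h. limma on FPKM gave 0 for the ibuprofen bolus at 12 h and the bolus pair at 6 and 12 h, 3 for the probes at 6 h and 6 for the interaction. DESeq2 gave 6 for the ibufenac bolus at 6 h, 5 for the bolus pair at 12 h and 0 for DMSO at 18 h, and DESeq2 size factors in edgeR gave 0 for the last. A minimum count of 50 and library sizes without mitochondrial genes moved no count by over 1.5 times.

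Without 1 library at a time, counts ranged from 0 to 1 for the ibuprofen bolus averaged over times, 0 to 8 at 12 h, 0 to 8 for the ibufenac bolus at 6 h, 0 to 8 and 0 to 15 for the bolus pair at 6 and 12 h, 0 to 0 for DMSO at 18 h and 11 to 15 for the interaction. For the ibuprofen bolus at 12 h the count was 8 without bolus replicate 1 and 0 without replicate 2 or any DMSO library. For the bolus pair at 12 h it was 15 without ibuprofen replicate 1 and 0 without replicate 2. The count of that pair was 0, 1 and 0 without ibufenac replicates 1, 2 and 3, none of which is a high library. At 6 h the bolus pair had 0, 0 and 1 calls without ibuprofen replicates 1, 2 and 3, and 0 without ibufenac replicate 3.

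Some values turned their sign. Without the 4 high libraries, MT-RNR2 with the ibuprofen bolus at 12 h was -0.13, from the 1 library left in that group, and the bolus pair at 6 h gave MT-ND1 -0.00172, MT-ND2 -0.31, MT-ATP6 -0.0456, MT-ND4 -0.24, MT-ND5 -0.24 and MT-CYB -0.19. Without 1 library at a time the pair ranged from -0.305 to 2.24 for MT-ND2, -0.0400 to 2.45 for MT-ATP6, -0.237 to 2.53 for MT-ND4, -0.235 to 2.29 for MT-ND5 and -0.187 to 2.07 for MT-CYB, each lowest without ibufenac bolus 6 h replicate 3, and MT-RNR2 from -0.0119 (without ibuprofen bolus 12 h replicate 2) to 3.90.

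Expected counts below 10 CPM, as for MT-ND6, MT-ATP8 and MT-RNR1, and the 43 tRNA counts limit what can be seen of these genes.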
